A study of Mus musculus with 8 samples.

Results

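Translation initiation factors are the proteins that bring ribosome, initiator tRNA and mRNA together at a start codon. Their genes were taken as the probe sets with a single gene symbol that begins with Eif and a digit, leaving out the eIF2alpha kinases named Eif2ak, and each gene was read from its brightest probe set over the 8 arrays. This gave 43 genes of the 18193 with a single-symbol probe set, of which 41 passed the filter on low values, out of 12091 genes tested in all. The 43 genes had 120 probe sets, and 33 of them had more than 1. Eif1, Eif2s1, Eif3g, Eif4g1 and Eif4ebp3 were not analysed here, and 6 further Eif probe sets that carry several symbols were left out.

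The arrays hold RNA of CD4 T cells from the spleens of 8-week-old mice, either wild type (WT) or deficient in the interferon-gamma receptor chain IFN-gR1 (KO). All cells, controls included, were activated with antibodies to CD3 and CD28 for 15 h. During the last 3 h they received db-cAMP, a cell-permeable analogue of cyclic AMP, or vehicle (med). Each of the 4 combinations of genotype and treatment had 2 arrays. The titles call these biological replicates without saying whether mice or cultures were separate, so the p-values reflect the spread between arrays, which may be technical. On the 4 arrays titled KO the free-text description speaks of WT cells, while source name and genotype entry say KO, and the titles were followed. Ifngr1, the targeted gene, gave signals of 905.2 and 873.5 in WT vehicle, 7319 and 8201 in WT db-cAMP, 439.2 and 377.7 in KO vehicle and 1056 and 1272 in KO db-cAMP. It was lower in KO under both treatments but not absent, and the sources do not say whether its probes lie in the deleted part.

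In eukaryotic initiation eIF2 carries initiator tRNA to the small ribosomal subunit, and eIF2B recharges eIF2 with GTP after each round. eIF3, eIF1 and eIF1A hold the subunit open for scanning, while eIF4F, made of cap-binding eIF4E, helicase eIF4A and scaffold eIF4G, brings it to the cap of the mRNA. eIF5 and eIF5B then end scanning and join the subunits. T cells raise protein synthesis steeply after stimulation through the antigen receptor, and cyclic AMP, acting mainly through protein kinase A, is a classical brake on that stimulation.

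Values are linear MAS5 signals scaled so that every array has the same trimmed mean of 500, which hides any change in the total amount of mRNA in a cell. Replicate arrays correlated at 0.961 to 0.977 across genes, which are not independent replicates. The summed signal of 7 T cell markers was 66500 to 74610 on every array, against at most 555.1 for B cell, 516.3 for CD8 T cell, 468.2 for macrophage and neutrophil and 250.5 for dendritic cell markers. NK cell markers summed to 395.5 to 524.6 under vehicle and 769.2 to 944.2 under db-cAMP. Control probe sets differed between groups. Poly-A controls averaged 1441 to 2148 on WT arrays and 4159 to 5834 on KO arrays, and probe sets for 18S ribosomal RNA averaged 24550 to 28570 under vehicle and 31400 to 38700 under db-cAMP. The part of these differences in the results below was not tested. In bulk RNA, fewer cells of a type and less RNA per cell cannot be told apart.

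The first comparison was db-cAMP against vehicle in WT cells. Of the 41 genes, 19 fell, 5 rose and 17 did not pass the threshold, an adjusted p under 0.05 in limma over all 12091 genes. The called share was 58.5%, against 35% of all genes tested, of which 18.6% were called lower and 16.4% higher. Most members are bright: 25 of the 41 were among the brightest 10% of genes tested, where 55.6% of all 1210 genes and 56% of the members were called. The median log2 change was -0.16 over the members and 0.01 over all genes. The changes were mostly small, with 3 of the 24 reaching 2-fold and 15 staying under 1.5-fold. The falls reached factors of every functional group, led by Eif2b3 and Eif1a, and the rises were led by Eif4e3. On the arrays themselves 23 members were lower and 8 higher with no overlap between the groups, and non-overlap held for 63% of all genes.

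**Figure D1:**
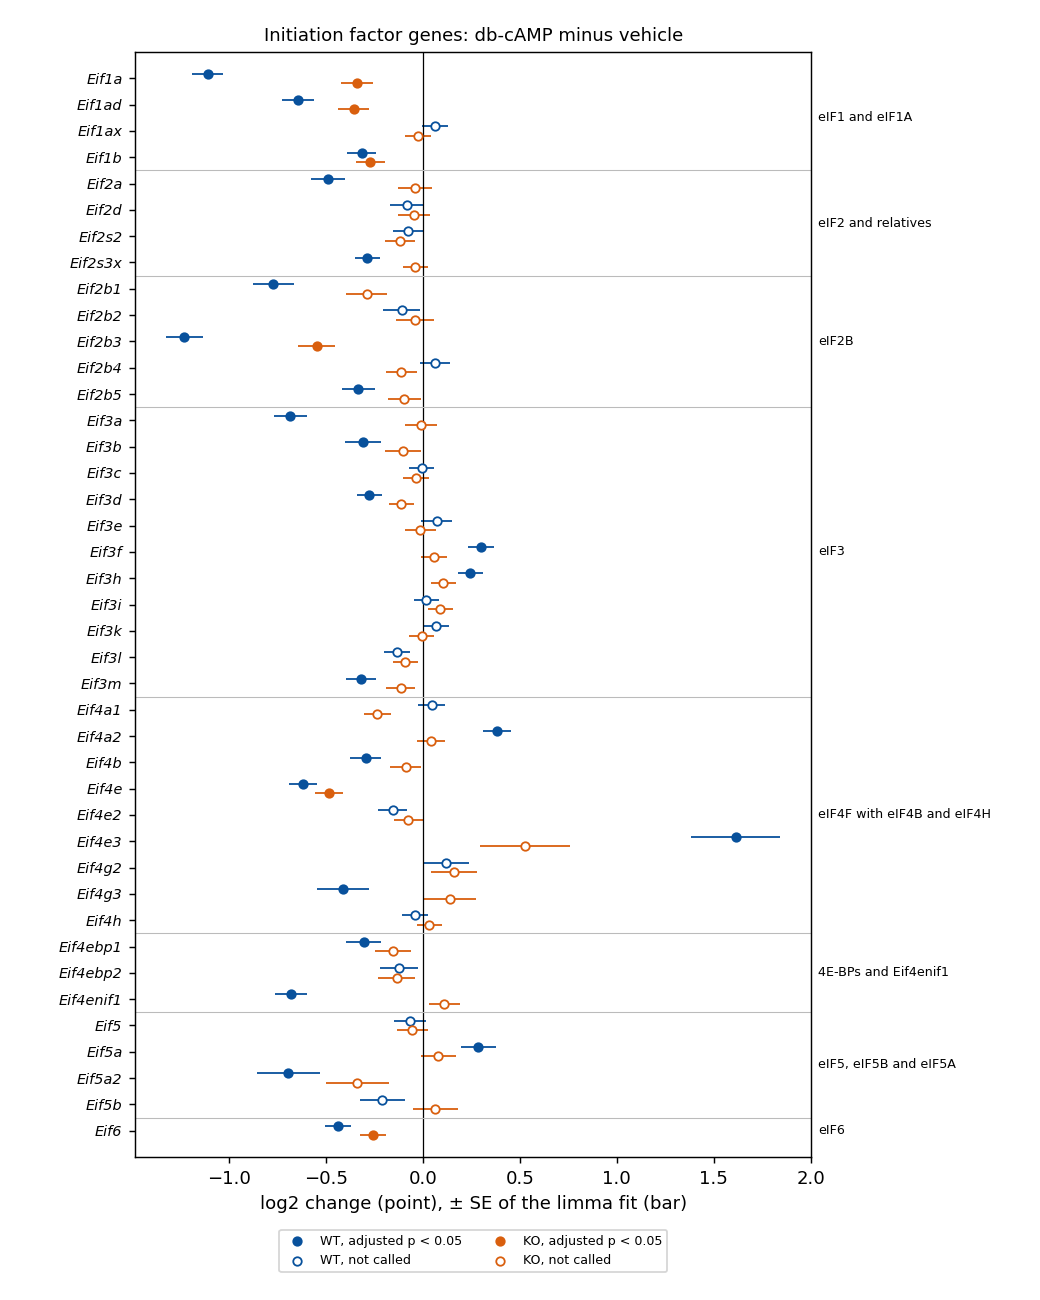
Log2 change with db-cAMP of each of the 41 tested initiation factor genes (x axis, point with SE bar from the limma fit), in WT (blue) and KO cells (orange), grouped by role, with filled points for adjusted p under 0.05. Filled blue points lie mainly left of 0, from -1.23 for Eif2b3, while only 6 orange points are filled, all left of 0.

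Promoter sequence is shown for 5 members that changed in WT cells, because Myc, a transcription factor that binds the E-box CACGTG, fell in the same arrays, and because members that fell and members that rose both hold that motif. Myc gave 9547 and 10400 in WT vehicle, 2448 and 2587 in WT db-cAMP, 8257 and 8370 in KO vehicle and 5798 and 5756 in KO db-cAMP. Each sequence is the 250 bases before an annotated start of the gene in RefSeq (build GRCm38.p6). It is written in the direction of transcription with every CACGTG in capitals. Eif4e had 2 such windows, and the window with the most copies of CACGTG was chosen for display, the first by position on a tie. The other genes shown had 1 window each. Eif4e (chr3:138527018-138527267, plus strand) and Eif5a2 (chr3:28781027-28781276, plus strand) fell and hold 2 copies each. For Eif5a2 the fall was called on 1 of its 2 probe sets. Eif2b1 (chr5:124579132-124579381, minus strand) fell and holds none. Eif3f (chr7:108934165-108934414, plus strand) rose and holds 1, and Eif4a2 (chr16:23107218-23107467, plus strand) rose and holds none.
Eif4e: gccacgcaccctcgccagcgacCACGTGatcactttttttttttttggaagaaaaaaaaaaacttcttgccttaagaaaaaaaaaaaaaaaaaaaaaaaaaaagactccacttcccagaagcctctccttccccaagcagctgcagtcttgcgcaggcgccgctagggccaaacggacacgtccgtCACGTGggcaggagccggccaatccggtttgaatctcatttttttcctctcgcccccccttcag
Eif5a2: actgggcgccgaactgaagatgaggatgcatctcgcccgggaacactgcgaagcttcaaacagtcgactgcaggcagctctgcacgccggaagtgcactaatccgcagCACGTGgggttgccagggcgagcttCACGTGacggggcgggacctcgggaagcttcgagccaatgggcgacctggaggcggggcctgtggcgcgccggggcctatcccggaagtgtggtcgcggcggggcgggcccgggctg
Eif2b1: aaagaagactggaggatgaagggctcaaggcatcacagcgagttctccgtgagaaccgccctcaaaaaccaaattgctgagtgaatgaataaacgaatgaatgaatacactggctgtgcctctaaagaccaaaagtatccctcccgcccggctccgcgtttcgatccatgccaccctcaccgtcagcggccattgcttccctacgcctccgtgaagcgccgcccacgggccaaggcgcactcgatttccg
Eif3f: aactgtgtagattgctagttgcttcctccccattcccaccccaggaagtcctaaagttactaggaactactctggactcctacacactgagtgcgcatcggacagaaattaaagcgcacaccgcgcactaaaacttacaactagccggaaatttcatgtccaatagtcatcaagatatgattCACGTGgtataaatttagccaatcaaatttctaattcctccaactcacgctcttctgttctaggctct
Eif4a2: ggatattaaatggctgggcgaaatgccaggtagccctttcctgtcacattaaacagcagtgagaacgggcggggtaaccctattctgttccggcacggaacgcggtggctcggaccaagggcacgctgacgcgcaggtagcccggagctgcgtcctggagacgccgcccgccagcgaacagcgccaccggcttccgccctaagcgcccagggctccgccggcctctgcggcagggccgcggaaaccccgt
The E-boxes start 228 and 64 bases before the start shown for Eif4e, 142 and 117 bases before that of Eif5a2 and 68 bases before that of Eif3f. Of the 43 genes, 34 matched the promoter table by symbol. CACGTG, which reads the same on both strands, was present in a window of 8 of the 34, or 23.5%, against 6.86% of the 27025 genes in the table. The 8 were Eif1b, Eif3f, Eif3k, Eif4a1, Eif4e, Eif4h, Eif5a and Eif5a2. A gene counted if any of its windows held the motif. By window it was 10 of 46 for the members and 6.02% of 32851 for all genes. The table is not limited to genes tested here, so the shares are not matched for expression. By the members' db-cAMP change in WT, CACGTG was found in 3 of 15 members that fell, 2 of 3 that rose and 3 of 14 not called. The cyclic AMP response element TGACGTCA, also the same on both strands, was found in 0 of the 34 and in 1.77% of all genes. A match is a description of these letters, not of a factor bound there.

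Among the factors that open the small subunit for scanning, Eif1a, the autosomal gene of eIF1A, had the second strongest fall. It gave 5044 and 5353 in WT vehicle, 2388 and 2423 in WT db-cAMP, 4485 and 4036 in KO vehicle and 3493 and 3232 in KO db-cAMP. Both WT db-cAMP arrays lay below all other arrays, and the KO arrays split by treatment without overlap. The log2 change was -1.11 ± 0.08 (SE, adjusted p 1.8e-07) in WT and -0.34 ± 0.08 (adjusted p 0.020) in KO. Its X-linked relative Eif1ax did not pass in either genotype, with 12190 and 12790 under vehicle, 12760 and 13320 under db-cAMP in WT, and 11620 and 11560, then 11680 and 11120, in KO. These Eif1ax signals overlapped between the treatments in both genotypes, but a dimmer Eif1ax probe set, at 994.5 and 1074 under vehicle, fell to 783.3 and 765.1 under db-cAMP in WT. The dimmest Eif1ax probe set also fell in WT, from 90.7 and 138.9 to 24.96 and 6.856. Eif1ad, whose product carries an eIF1A domain, gave 2898 and 2731, then 1773 and 1823, in WT and 2476 and 2399, then 1941 and 1865, in KO. It fell in both, by 0.64 and 0.36 on the log2 scale. Eif1b, a close paralogue of eIF1, gave 5798 and 6178, then 4896 and 4734, in WT and 5852 and 6306, then 4916 and 5155, in KO. Its fall was of similar size in both genotypes, 0.31 in WT and 0.27 in KO.

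Genes of eIF2 itself moved little. Eif2s2, the beta subunit, gave 31660 and 30710 in WT vehicle and 27720 and 31660 in WT db-cAMP, which overlap (log2 -0.07, adjusted p 0.53), although 3 of its 6 probe sets fell. Eif2s3x, the X-linked gamma subunit, went from 17010 and 17600 to 13870 and 14540 in WT, a fall of 0.29, and read 15330 and 15900, then 15490 and 14930, in KO. Its KO arrays overlapped between treatments. The Y-linked copy Eif2s3y was not tested: it read 3.406 to 68.08 over the arrays and never passed an array's median, while the female-specific Xist read 4515 to 6096 on all of them. Eif2a, which can deliver initiator tRNA without eIF2, fell by 0.49 in WT, from 2879 and 2829 to 2183 and 1893. In KO it read 2760 and 2646, then 2687 and 2572, close to the WT vehicle level. A second Eif2a probe set read 2065 and 2411, then 2240 and 1609, in WT, which overlap. Its changes were -0.23 in WT and -0.30 in KO, neither called, with an interaction of -0.07.

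The exchange factor eIF2B showed a fall in 3 of its 5 subunits in WT. Eif2b3, the gamma subunit, had the strongest fall of all members: 2850 and 2731 in WT vehicle, 1095 and 1288 in WT db-cAMP, 2153 and 2135 in KO vehicle, and 1479 and 1455 in KO db-cAMP. All db-cAMP arrays lay below all vehicle arrays, with log2 changes of -1.23 ± 0.10 (SE, adjusted p 3.0e-07) in WT and -0.55 ± 0.10 (adjusted p 0.0025) in KO. Eif2b1, the alpha subunit, read 1906 and 1726, then 1120 and 1006, in WT, and 1781 and 1704, then 1532 and 1325, in KO. Only the WT change was called, at -0.77 against -0.29 in KO (adjusted p 0.12). Eif2b5, the catalytic epsilon subunit, read 3373 and 3194, then 2799 and 2423, in WT and 3034 and 3082, then 2899 and 2823, in KO, and fell by 0.33 in WT. The beta and delta subunits were not called with db-cAMP in either genotype. Eif2b2 read 3157 and 2757, then 2833 and 2643, in WT, with overlap, and 2823 and 2633, then 2845 and 2473, in KO. Eif2b4 read 3694 and 3739, then 3881 and 3885, in WT, and 3313 and 3531, then 3341 and 3000, in KO.

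The large scaffold eIF3 moved in both directions in WT, with 4 of 11 subunits lower, 2 higher and a median log2 change of -0.01. Eif3a, its largest subunit, read 22640 and 26610 in WT vehicle, 15570 and 15010 in WT db-cAMP, 24880 and 22610 in KO vehicle and 24030 and 23150 in KO db-cAMP. The WT db-cAMP arrays stood apart from the 6 others, with a change of -0.68 ± 0.08 (SE, adjusted p 2.0e-05) in WT and -0.01 in KO. In WT all 4 Eif3a probe sets had a negative change, from -0.83 to -0.42, and 3 of them were called. Eif3b, Eif3d and Eif3m also fell, by 0.31, 0.28 and 0.32. Eif3f and Eif3h rose by 0.30 and 0.24. Eif3f read 27020 and 26620, then 31640 and 34480, in WT, and 22430 and 22270, then 23960 and 22570, in KO. On the probe sets used, no eIF3 gene was called with db-cAMP in KO, where the changes ran from -0.11 to 0.11. The 4 Eif3a probe sets ran from -0.58 to -0.01 in KO, and 1 of them was called lower. That dimmer probe set changed by -0.58 in KO and -0.63 in WT.

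The cap-binding group held the only rise above 2-fold. Eif4e3, a relative of eIF4E, read 135.7 and 170.4 in WT vehicle, 452.5 and 501.6 in WT db-cAMP, 182.5 and 196.6 in KO vehicle and 335.7 and 225.8 in KO db-cAMP. The db-cAMP arrays were the higher ones in each genotype, with changes of 1.61 ± 0.23 (SE, adjusted p 9.2e-05) in WT and 0.53 ± 0.23 (adjusted p 0.21) in KO. A second, dimmer Eif4e3 probe set read 26.4 and 28.97 in WT vehicle and 465.2 and 532 in WT db-cAMP. In KO it read 124 and 92.13 under vehicle and 164.5 and 189.8 under db-cAMP, a change of 0.70 that was not called. Its WT vehicle signals lay below the medians of those arrays, 56.23 and 63.76. Eif4e, the main cap-binding protein and a limiting part of eIF4F, went the other way. It read 9620 and 9125, then 5960 and 6249, in WT, and 7422 and 8079, then 5496 and 5573, in KO, and fell by 0.62 and 0.48 (adjusted p 1.4e-05 and 0.00079). All db-cAMP arrays lay below all vehicle arrays, and 3 of the 4 Eif4e probe sets fell in WT. Eif4e2, a cap-binding repressor, read 4830 and 4564, then 4160 and 4274, in WT and 3484 and 3650, then 3266 and 3514, in KO. Its log2 change was -0.16 in WT and -0.07 in KO, neither called, although 1 of its 5 probe sets, a dimmer one, fell by 0.81 in WT.

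The helicases differed. Eif4a2 rose by 0.38 in WT, from 16580 and 17810 to 21490 and 23420, and read 17280 and 18310, then 17770 and 18880, in KO, where the treatments overlapped. Eif4a1 read 52240 and 55130, then 55670 and 55160, in WT and 31030 and 34430, then 27480 and 28110, in KO, and was not called with db-cAMP in either. In WT 1 of its 3 probe sets fell, by 0.52. The single-symbol probe set of Eif4a3, the helicase of the exon junction complex, read 2.695 to 27.49 and was not tested. Eif4b, which stimulates the helicase, fell by 0.29 in WT, from 8159 and 7290 to 6633 and 5967, and read 7960 and 8433, then 7587 and 7840, in KO. Eif4h, a relative of eIF4B, read 20070 and 20610, then 20410 and 19180, in WT and 17670 and 17220, then 18040 and 17670, in KO, with no call. Of the scaffolds, Eif4g3 fell by 0.41 in WT, from 2153 and 2499 to 1775 and 1713, with 2489 and 1789, then 2174 and 2484, in KO. The KO arrays of Eif4g3 overlapped. Eif4g2, a scaffold that lacks the eIF4E-binding part, read 36150 and 45560, then 38500 and 50450, in WT and 34510 and 32680, then 38150 and 36880, in KO, and was not called.

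Of the proteins that restrain eIF4E, Eif4enif1, which carries eIF4E to the nucleus and to processing bodies, had the clearest split. It read 5768 and 5762 in WT vehicle, 3595 and 3600 in WT db-cAMP, 4947 and 4483 in KO vehicle and 4776 and 5424 in KO db-cAMP. WT db-cAMP arrays lay below all others, and the KO treatments overlapped. Its change was -0.68 ± 0.08 (SE, adjusted p 1.9e-05) in WT and 0.11 ± 0.08 (adjusted p 0.51) in KO. Eif4ebp1, the inhibitor released from eIF4E by mTORC1, read 1849 and 1874, then 1423 and 1594, in WT and 1917 and 2016, then 1699 and 1842, in KO. It fell by 0.30 in WT. Eif4ebp2, its relative, read 3838 and 3892, then 3461 and 3634, in WT and 4256 and 3384, then 3389 and 3522, in KO, with no call.

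The late factors also moved in both directions. Eif5, which makes eIF2 hydrolyse its GTP, read 6161 and 5405, then 5244 and 5812, in WT and 15390 and 15580, then 15530 and 14350, in KO, with overlapping treatments in WT and no call. Of its 5 probe sets 1 other fell in WT, by 0.53, from 9438 and 9688 to 6583 and 6694. The KO change of that probe set was -0.26, not called. Eif5b, the subunit-joining GTPase, read 2190 and 2150, then 1766 and 1995, in WT and 1994 and 1576, then 1726 and 1995, in KO, with no call. A dim Eif5b probe set fell in WT, from 186.2 and 140 to 41.27 and 43.46, with a KO change of 0.01. Eif5a, a hypusine-bearing factor that also serves elongation, rose by 0.29 in WT, from 56570 and 61260 to 64750 and 79660, and read 45270 and 46420, then 48980 and 48010, in KO. Its second probe set had a change of -0.19 in WT, not called. Eif5a2, the paralogue, fell by 0.69 in WT, from 527.1 and 504 to 351.9 and 285.2, and read 605.4 and 488.1, then 430.2 and 428, in KO. A dimmer Eif5a2 probe set read 204.4 and 238.9, then 257.7 and 196.9, in WT, a change of 0.03 that was not called. Eif6, which keeps the large subunit from joining too early, read 12370 and 12990, then 9598 and 9158, in WT and 11070 and 11510, then 9445 and 9468, in KO. It fell in both, by 0.44 and 0.25, with all db-cAMP arrays below all vehicle arrays.

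**Figure D2:**
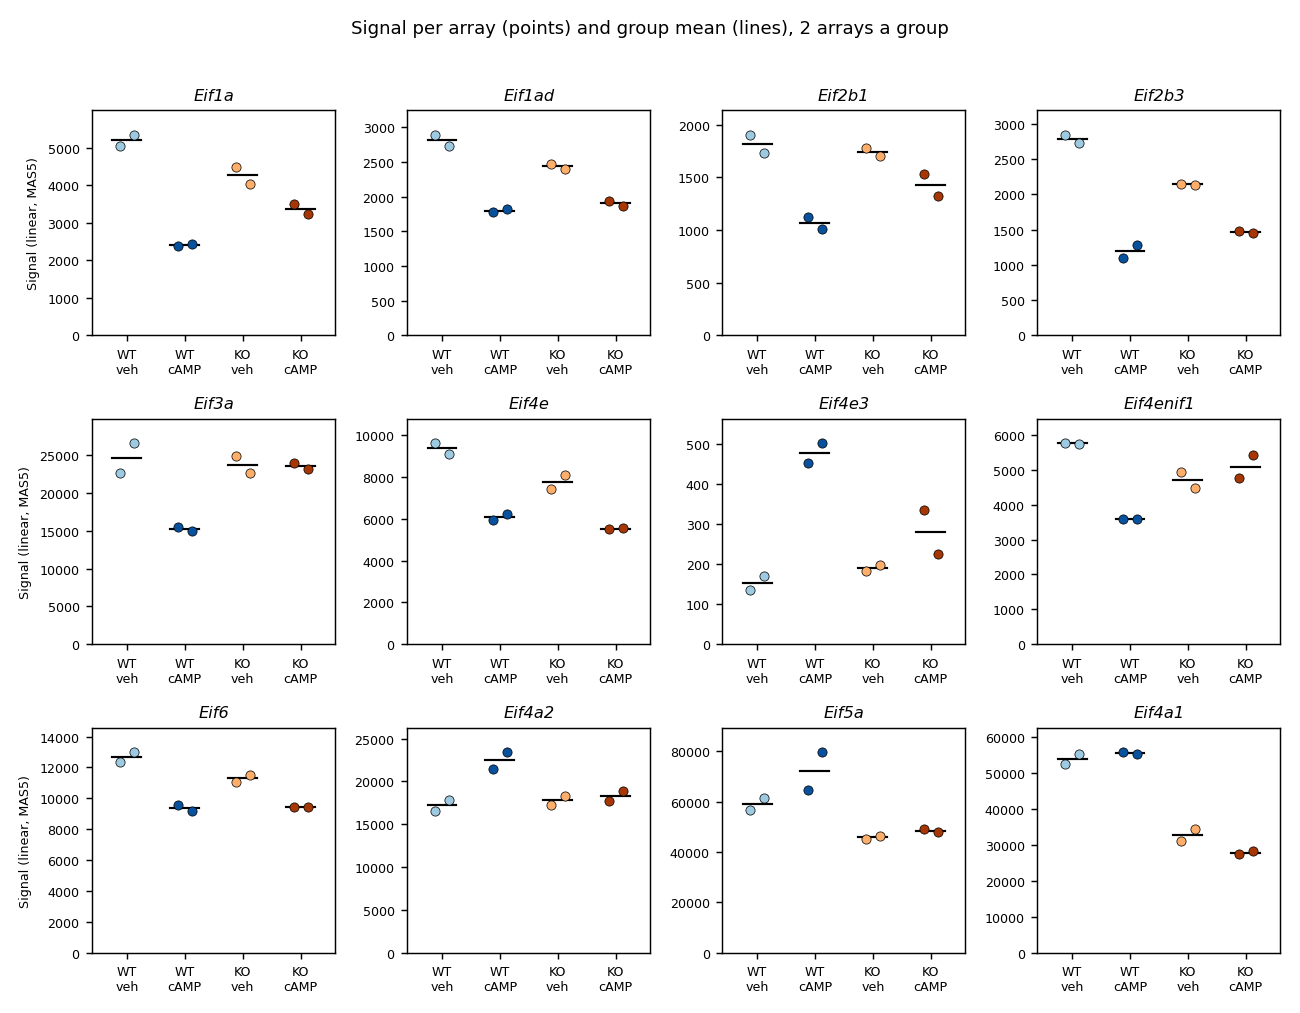
Linear MAS5 signal (y axis, from 0) on each of the 8 arrays for 12 initiation factor genes, with points for arrays and lines for the mean of the 2 arrays of a group. Eif1a, Eif3a and Eif4enif1 are lowest in WT db-cAMP, Eif4e3 is highest there at 452.5 and 501.6, and Eif4a1 separates by genotype.

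These WT counts depended on scaling and on the probe set. Quantile normalization gave 23 lower and 2 higher, with Eif3f, Eif3h and Eif5a no longer called as higher, 12 were called without the intensity trend, and the sign turned for Eif3d, Eif3h and Eif4ebp1 with the mean of a gene's probe sets. For Eif3d and Eif3h that mean takes in probe sets that failed the filter on low values. Under all 18 alternatives 10 calls held, those of Eif1a, Eif1ad, Eif2b1, Eif2b3, Eif3a, Eif4a2, Eif4e, Eif4e3, Eif4enif1 and Eif6.

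In KO cells db-cAMP changed fewer members past the threshold. Eif1a, Eif1ad, Eif1b, Eif2b3, Eif4e and Eif6 fell, 0 rose and 35 were not called, a called share of 14.6% against 8.38% of all genes, of which 3.68% were called lower and 4.7% higher. Among the brightest 10% of genes 14.4% were called, and 12% of the members there. At an unadjusted p under 0.05 there were 9 members. The median change was -0.05 over the members and 0.00 over all genes, with a range from -0.55 for Eif2b3 to 0.53 for Eif4e3. On the arrays 16 members were lower and 6 higher under db-cAMP with no overlap, which held for 52.3% of all genes. All 6 also fell in WT, where 13 more fell and 5 rose that were not called in KO. The count of 6 dropped to 2 without either KO db-cAMP array, to 3 without either KO vehicle array, and to 2 with the mean of a gene's probe sets. Without the intensity trend it was 0.

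Whether the db-cAMP change differed by genotype was tested with the interaction, the KO change minus the WT change. It was called for 7 members, 17.1% against 11.8% of all genes tested, of which 6.7% were positive and 5.09% negative, and the median was 0.07 over the members and 0.01 over all genes. Among the brightest 10% of genes 23.3% were called, and 12% of the members there. Eif4enif1 (0.79 ± 0.11, SE), Eif1a (0.77 ± 0.11), Eif2b3 (0.68 ± 0.13), Eif3a (0.67 ± 0.12) and Eif2a (0.45 ± 0.12) had positive values, that is, a smaller fall or none in KO. Eif4e3 (-1.09 ± 0.33) and Eif4a2 (-0.34 ± 0.10) had negative ones, a smaller rise in KO. Adjusted p ran from 0.00064 for Eif4enif1 to 0.049 for Eif4a2. For Eif4e (0.13 ± 0.10, adjusted p 0.48), Eif1b (0.04 ± 0.10) and Eif6 (0.18 ± 0.09) the interaction was not called. The count was 4 without the second KO vehicle array, the second WT db-cAMP array or the first WT vehicle array, and 0 without the intensity trend. Eif2a, Eif4a2 and Eif4e3 lost the call under 10 to 11 of 17 alternatives, and Eif1a, Eif2b3 and Eif4enif1 lost it only without the intensity trend. Eif3a lost it without the trend and with the mean of probe sets (0.39). Of its 4 probe sets 2 were called for the interaction, with values from 0.05 to 0.68. On the dimmer of the 2 Eif4e3 probe sets the interaction was -3.23 and was called.

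KO was also compared with WT within each treatment; these comparisons share arrays with those above, so the values stand side by side and are not independent. Under vehicle 13 members were lower in KO, 2 higher and 26 not called, 36.6% against 10.8% of all genes (5.78% lower, 5.06% higher), with a median of -0.17 against -0.01 for all genes. The arrays of 27 members were lower and of 4 higher without overlap, against 50.9% of all genes without overlap. Under db-cAMP 14 were lower, 10 higher and 17 not called, 58.5% against 29.2% (13.3% lower, 15.9% higher), with a median of -0.04 against -0.01. Here 19 members were lower and 16 higher without overlap, against 64.1% of all genes. Bright genes as such were lower on KO arrays: among the brightest 10% of genes the median difference was -0.15 under either treatment, and 34.6% were called under vehicle and 59.3% under db-cAMP, with 48% and 64% of the members there. With quantile normalization the split was 4 higher and 4 lower under vehicle and 15 higher and 6 lower under db-cAMP. With arrays set to an equal 75th percentile it was 2 higher and 22 lower, and 5 higher and 17 lower. Under db-cAMP that scaling moved the median of all genes to -0.12 and the median of the members to -0.16. Other values also moved with genotype. Hybridization controls averaged 18080 to 27170 on WT arrays and 14330 to 15860 on KO arrays. The highest signal of an array was 86707.7 to 131247 in WT and 65164.6 to 72625.5 in KO. Poly-A controls were higher on KO arrays, and the 3-prime to 5-prime signal ratio was 0.734 to 0.769 in WT and 0.779 to 0.850 in KO for Gapdh, and 1.46 to 1.72 and 1.34 to 1.44 for beta-actin. CD8 T cell markers summed to 498.8 to 516.3 in WT and 290.4 to 335.3 in KO under vehicle, and to 366.6 to 432.8 and 269.8 to 275.9 under db-cAMP. B cell markers summed to 409.5 to 430.3 and 283.4 to 330.6 under vehicle, and to 436.1 to 555.1 and 227.4 to 285.6 under db-cAMP. Their part in the counts was not tested.

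Eif4a1 and Eif5 were called under vehicle in all 18 alternatives. Eif4a1 was lower in KO by 0.72 ± 0.07 (SE, adjusted p 2.3e-05) under vehicle and by 0.995 ± 0.071 (adjusted p 3.4e-07) under db-cAMP, and all KO arrays, at 27480 to 34430, lay below all WT arrays, at 52240 to 55670. Its 3 probe sets were all lower under vehicle, by 0.31 to 0.72, but under db-cAMP their differences were -0.995, -0.64 and 0.09. Eif5 was higher in KO by 1.42 ± 0.08 (adjusted p 1.4e-07) and 1.43 ± 0.08 (adjusted p 5.4e-08), but not in all of its probe sets, as described below. Eif3k, an eIF3 subunit, read 15430 and 15580, then 16300 and 16260, in WT, and 11080 and 11760, then 11530 and 11220, in KO. Eif3h read 21060 and 20760, then 24150 and 25380, in WT, and 16040 and 16500, then 17680 and 17320, in KO. Eif2s2 read 21880 and 24380, then 21620 and 20960, in KO, below its WT arrays. For all 3 the KO arrays lay below every WT array. Members lower in KO under both treatments were Eif3k (-0.44 and -0.52), Eif2s2 (-0.43 and -0.48), Eif4e2 (-0.40 and -0.32), Eif3h (-0.36 and -0.50), Eif5a (-0.36 and -0.57), Eif3l (-0.35 and -0.31) and Eif3f (-0.26 and -0.51). Of these, quantile normalization kept Eif3k and Eif4e2 as lower under both treatments; it ended both calls for Eif2s2 (-0.16 and -0.07), Eif3f (-0.02 and -0.10) and Eif3l (-0.18 and -0.09), and that of Eif3h under vehicle (-0.13). The difference turned positive for Eif5a with quantile normalization under both treatments, and with the mean of probe sets for Eif2s2 and Eif4e2 under both treatments and for Eif3h under db-cAMP. Eif3b, a core eIF3 subunit with a single probe set tested, was higher in KO under both, by 0.44 ± 0.09 and 0.65 ± 0.09, with 6102 and 5196, then 4845 and 4266, in WT and 7289 and 7987, then 6987 and 7242, in KO. All its KO arrays were above all its WT arrays.

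Under db-cAMP the members higher in KO were Eif1a, Eif2a, Eif2b1, Eif2b3, Eif3a, Eif3b, Eif4b, Eif4enif1, Eif4g3 and Eif5, and all but Eif5 had fallen with db-cAMP in WT on the same WT db-cAMP arrays. The largest of these differences apart from Eif5 were those of Eif3b (0.65), Eif3a (0.63), Eif4enif1 (0.50) and Eif1a (0.48). In the other direction Eif4e3 was lower by 0.78 ± 0.23 (adjusted p 0.021) and Eif4a2 by 0.29 ± 0.07 (adjusted p 0.0081). Calls that held in all 18 alternatives were those of Eif1a, Eif3a, Eif3b, Eif3k, Eif4a1, Eif4enif1 and Eif5, the last with the limit on its probe set given above. Under vehicle the count of 15 fell to 8 without either KO vehicle array, to 9 without the first and 7 without the second WT vehicle array.

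**Figure D3:**
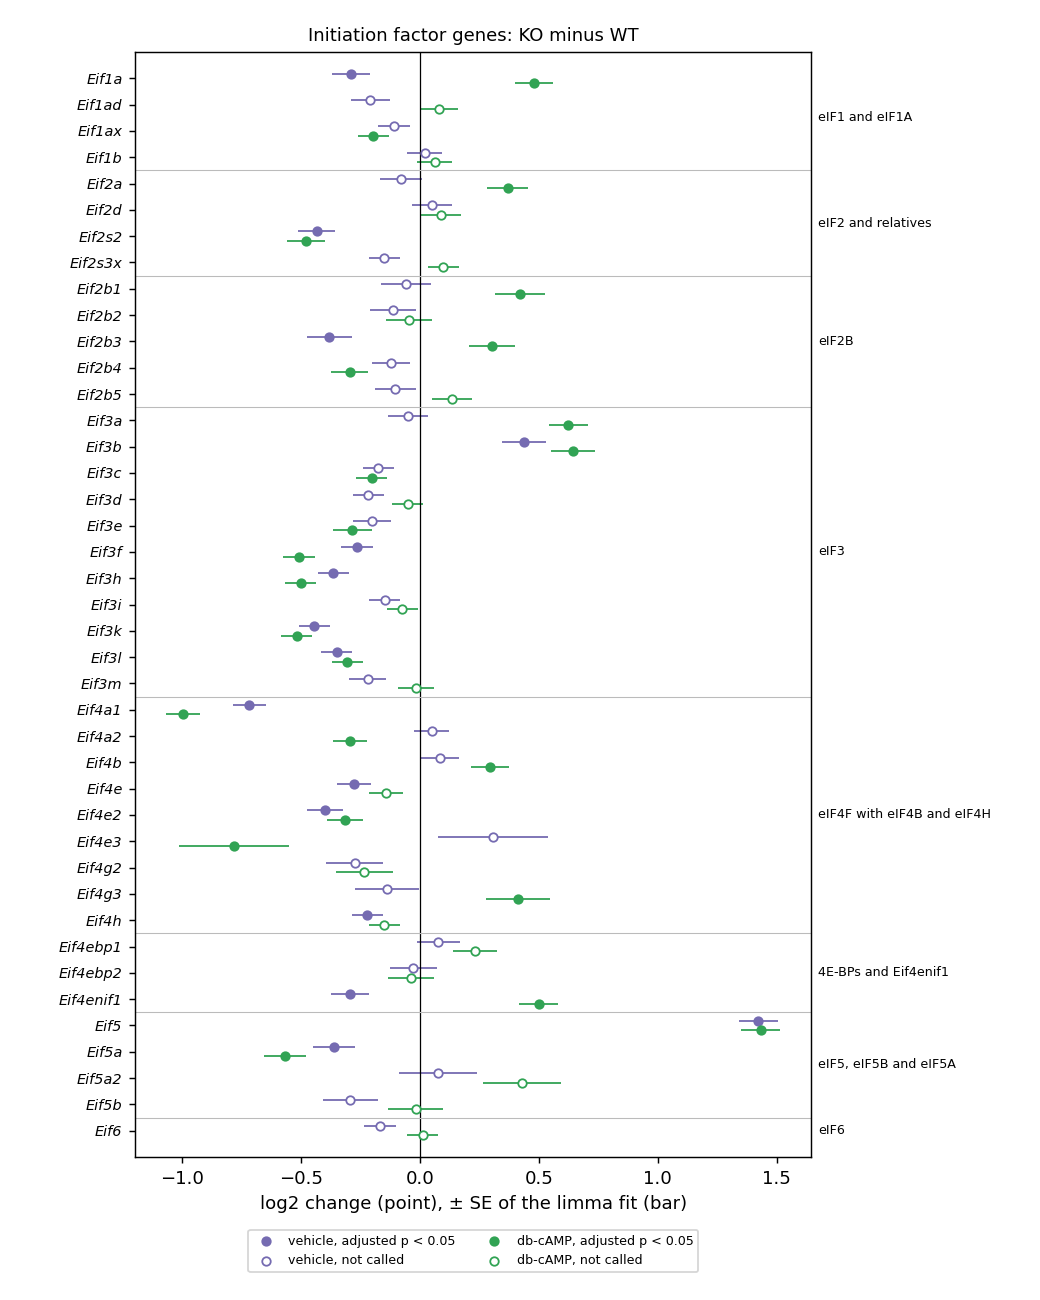
KO minus WT on the log2 scale (x axis, point with SE bar from the limma fit) for the 41 tested initiation factor genes by role, under vehicle (purple) and db-cAMP (green), with filled points for adjusted p under 0.05. Eif5 lies far to the right at 1.42 and 1.43, Eif4a1 to the left at -0.72 and -0.995, and Eif1a, Eif3a and Eif4enif1 lie right of 0 only under db-cAMP.

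Probe sets of the same gene gave different genotype differences. In a fit with each of 21956 probe sets as its own row, 30 members had at least 2 probe sets tested. Under vehicle 1 of the 30, Eif5, had calls in both directions, against 0.695% of 5615 such genes in all. Under db-cAMP there were 6, Eif1ax, Eif2s2, Eif3c, Eif4b, Eif4e2 and Eif5, against 2.53%, whereas with db-cAMP against vehicle in WT there were 0, against 0.801%.

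The probe sets described next were chosen after their values were seen. The Eif5 probe set used above went from 6161 and 5405 in WT to 15390 and 15580 in KO under vehicle. A dim Eif5 probe set had a similar difference, 1.56, and the 3 others had -0.46, -0.05 and 0.07. Eif3c, an eIF3 core subunit, showed the same kind of split: 3712 and 3927 in WT against 12930 and 11840 in KO on 1 probe set (1.70), and differences from -0.17 to -0.03 on the 3 others. For Eif3a a dim probe set read 798.2 and 673.1 in WT and 3156 and 2084 in KO (1.80), while the brightest had a difference of -0.05. For Eif4ebp2 a dim probe set read 213.2 and 256 in WT and 812.9 and 792 in KO (1.76), while the brightest had -0.03. Each of these probe sets separated the genotypes on all 8 arrays, and which transcripts they read was not tested. Under vehicle the dimmer Eif4e3 probe set was also higher in KO, by 1.76, against 0.31, not called, on the brighter one. Of the 41 probe sets used for members, 9 have a name ending in _s_at or _x_at, which marks probes that can match several transcripts.

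**Figure D4:**
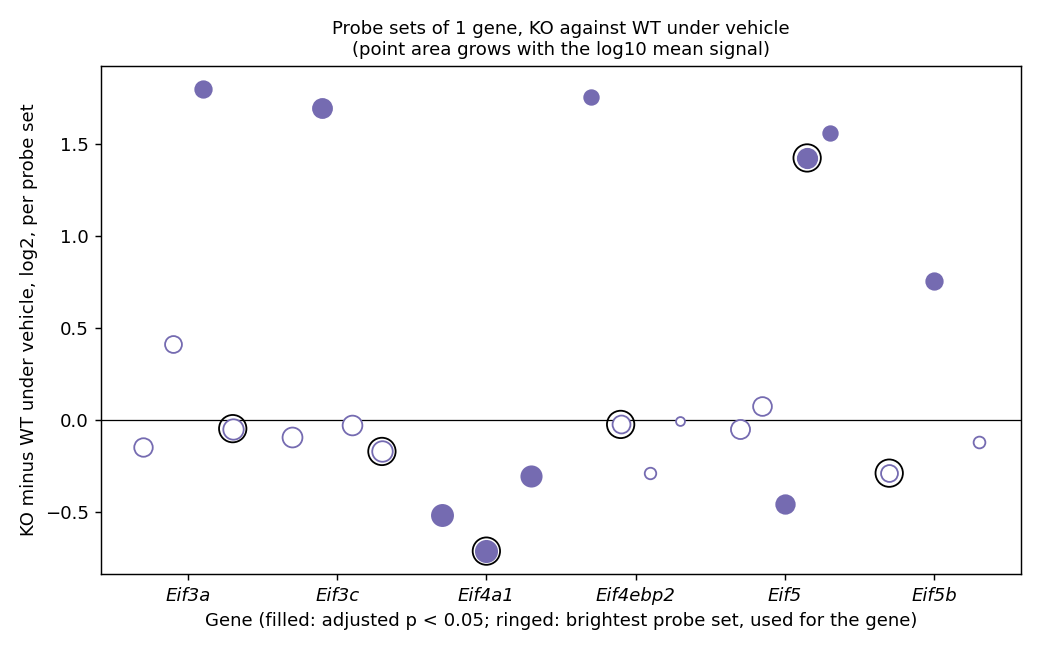
KO minus WT under vehicle (y axis, log2) for every tested probe set of 6 initiation factor genes (x axis), with point area growing with signal, filled points for adjusted p under 0.05 and a ring on the probe set used for the gene. Single probe sets of Eif3a, Eif3c and Eif4ebp2 lie at 1.70 to 1.80 while their ringed ones lie near 0; all 3 of Eif4a1 are below 0.

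Genes that act on or beside the factors were counted from lists. Of 17 genes listed as initiation partners with other names, 8 fell and 4 rose with db-cAMP in WT, and 3 fell and 3 rose in KO. These are called shares of 70.6% and 35.3% against 35% and 8.38% of all genes. The list is mixed, and its largest WT fall was that of Ltv1, a gene of small-subunit assembly (-1.21). It also holds the mitochondrial factors Mtif2 (-0.65) and Mtif3 (0.22, not called). Paip2, which blocks the poly-A-binding protein, read 8913 and 8742, then 17370 and 16710, in WT and 7805 and 7682, then 10240 and 9847, in KO, and rose by 0.95 and 0.38. Pdcd4, an inhibitor of eIF4A, rose by 0.62 in WT and 0.47 in KO. Larp1, which binds mRNAs of the translation machinery, fell from 4848 and 4600 to 2368 and 2126 in WT, by 1.07, and by 0.30 in KO. The helicase gene Ddx3x fell by 0.83 and 0.26. The rise of Paip2 and the falls of Larp1 and Ddx3x were smaller in KO (interaction -0.57, 0.77 and 0.58).

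Of 16 mTORC1 and MNK signalling genes, 4 rose and 0 fell in each genotype, 25% against 35% of all genes in WT and 8.38% in KO, and 7 in WT and 5 in KO had an unadjusted p under 0.05. Mknk2, a kinase that phosphorylates eIF4E, read 9272 and 8855 in WT vehicle, 27340 and 29460 in WT db-cAMP, 9100 and 8958 in KO vehicle and 14630 and 14290 in KO db-cAMP. It rose by 1.65 in WT and 0.68 in KO (interaction -0.97, adjusted p 3.5e-05). The mTORC1 inhibitors Sesn3 and Ddit4 rose by 1.69 and 1.09 in WT and by 1.11 and 0.36 in KO. Rheb, the activator of mTORC1, rose by 0.53 in WT, and its KO change was 0.02, with an interaction of -0.51 (adjusted p 0.0054). Mtor itself was not called with db-cAMP (-0.13 in WT, adjusted p 0.46, and 0.14 in KO).

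Of 8 genes for eIF2alpha kinases, their regulators and the phosphatase, 2 rose and 3 fell in WT, and 1 rose in KO, called shares of 62.5% and 12.5% against 35% and 8.38% of all genes. Eif2ak3, the kinase of endoplasmic reticulum stress, read 330.3 and 420.7, then 1373 and 1460, in WT and 376.4 and 411.5, then 802.5 and 906, in KO, and rose by 1.91 and 1.10. Eif2ak4, the kinase of amino acid shortage, fell by 1.60 in WT, from 401.6 and 384.4 to 132.3 and 119.4, with a KO change of -0.32 (not called). Ppp1r15a, the inducible phosphatase subunit, rose by 0.76 in WT. Atf4, whose mRNA is translated when eIF2alpha is phosphorylated, fell by 0.20 in WT.

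The other steps of translation were counted beside the initiation factors. With db-cAMP in WT, 12 of 18 aminoacyl-tRNA synthetases fell and 0 rose, and 5 of 6 termination and recycling factors fell and 1 rose. Of 11 genes listed under elongation, 2 fell and 1 rose. These are called shares of 66.7%, 100% and 27.3%, against 35% of all genes. In KO the falls were 2, 1 and 1, with 0 rises, called shares of 11.1%, 16.7% and 9.09% against 8.38%. The median WT change was -0.56 for termination and recycling factors, -0.31 for the synthetases, -0.23 for the elongation list and -0.16 for initiation factors. The termination and recycling list includes the mitochondrial factor Mrrf (-0.76). The elongation list is mixed, and besides cytosolic factors it holds Eef1e1, the kinase gene Eef2k and mitochondrial factors such as Tufm. In WT its 2 falls were those of Eef1e1 (-1.31) and Tufm (-0.50), with 4 positive and 7 negative changes in all. The positive ones were those of Eef1a1 (0.30), Eef1b2 (0.19), Eef1d (0.12) and Eef2 (0.38), of which only Eef2 was called.

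**Figure D5:**
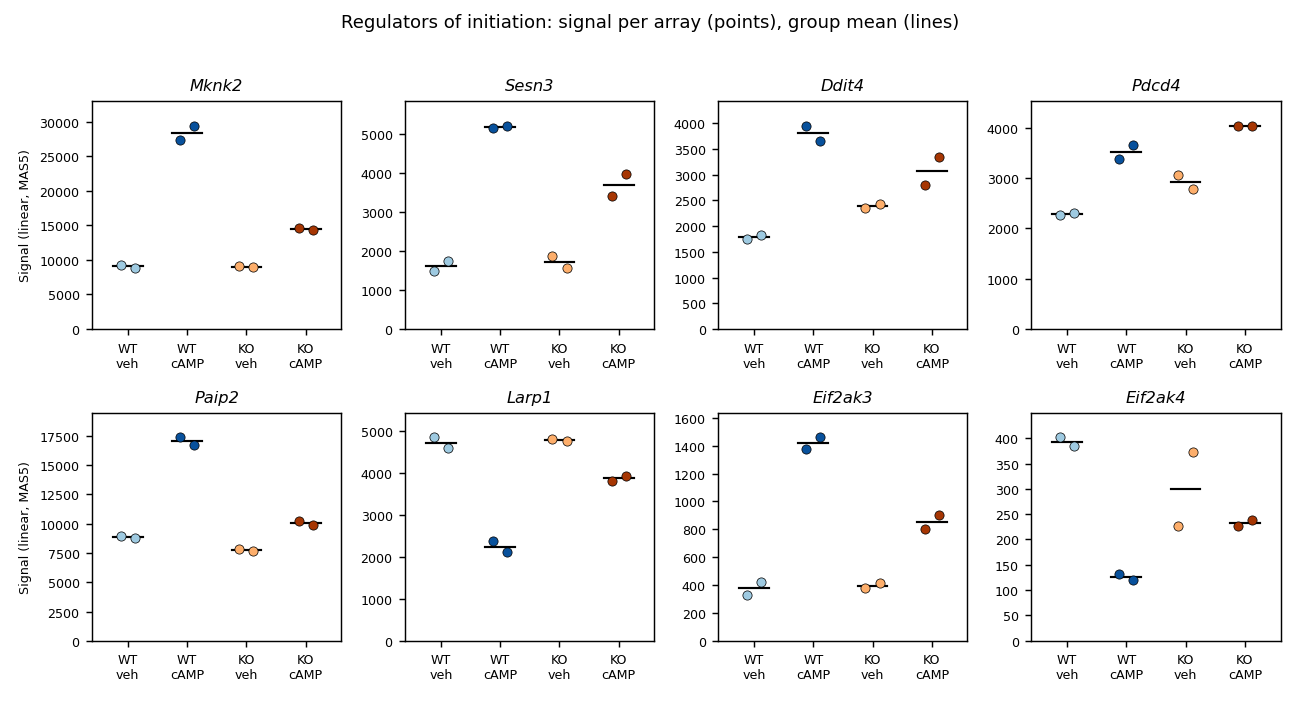
Linear MAS5 signal (y axis, from 0) on each of the 8 arrays for 8 regulators of initiation, with points for arrays and lines for the mean of the 2 arrays of a group. Mknk2, Sesn3, Ddit4, Paip2 and Eif2ak3 are highest in WT db-cAMP, and Larp1 and Eif2ak4 are lowest there.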

How the data were processed

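Transcripts were measured on 8 Affymetrix arrays, 2 in each of 4 groups taken from the sample titles. The authors deposited linear intensity values for each probe set, made with MAS5 per the submitters' processing notes, which give no version. The arrays had been scaled to 1 trimmed mean before deposit, and their number limits precision. Of 45101 probe sets, 64 were controls; 34945 had 1 symbol in the platform annotation, 932 several and 9160 none, and 34754 matched RefSeq (GRCm38.p6) by Entrez identifier with 0 symbols changed. Each gene was read from its brightest single-symbol probe set.

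Differences were tested on log2(value + 5.48), the offset being the 10th percentile of all values, which understates changes of dim genes. Genes above their array's median on at least 2 arrays were kept, 12091 of 18193. The fit was limma 3.58.1 in R 4.3.3 (lmFit, eBayes with an intensity trend) with group means fitted to the 8 arrays together (residual degrees of freedom 4) and Benjamini-Hochberg adjustment over all genes tested. Errors of log2 changes are SEs of the fit. The fit was tested on simulated data. Figures used Python 3.11.15 and matplotlib 3.10.9.

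The members and lists were chosen with earlier results of these data known, and no list was tested as a set. Named were the 12 largest called changes with db-cAMP in WT, up to 8 in KO and in each other comparison, a set of core factors whatever their values, and up to 4 called genes of each other list with a few regulators. Other members appear by count or as examples. Alternatives covered the offset, the filter, quantile and 75th-percentile scaling, the trend, the mean of probe sets, only the groups compared, a block, each array left out and, added after the data were seen, every probe set as its own row. Replicate numbers did not pair the arrays, with correlations of -0.02 to 0.021 between arrays that share a number.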

Additional observations from a re-analysis of the deposited data

Results flagged for a closer look

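The db-cAMP change differed between the genotypes in limma's interaction test for 7 initiation factor genes, given here as the KO change minus the WT change on the log2 scale. The differences were 0.77 for Eif1a (adjusted p 0.00080), 0.45 for Eif2a (adjusted p 0.031), 0.68 for Eif2b3 (adjusted p 0.0047), 0.67 for Eif3a (adjusted p 0.0021) and 0.79 for Eif4enif1 (adjusted p 0.00064). They were -0.34 for Eif4a2 (adjusted p 0.049) and -1.09 for Eif4e3 (adjusted p 0.047). The share of members called was 17.1%, against 11.8% of all genes tested and 23.3% of the brightest 10% of genes, where 12% of the members were called. The highest adjusted p over the alternatives ran from 0.064 for Eif1a to 0.999 for Eif2a. Every group has 2 arrays, too few to look for a single array far from the rest.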

How the results depend on the processing

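Counts of called initiation factor genes stayed within 1.5 times of the main count in limma under both other offsets, without the filter, with only the groups compared and with every probe set as its own row. Without the intensity trend the count was 12 in WT and 0 in KO for db-cAMP, 2 and 11 for KO against WT under vehicle and under db-cAMP, and 0 for the interaction. With the mean of probe sets it was 2 for db-cAMP in KO. For KO against WT under vehicle it was 24 with equal 75th percentiles and 8 with quantile normalization. Leaving out each array in turn gave 18 to 24 calls for db-cAMP in WT, 2 to 6 in KO, 7 to 15 for KO against WT under vehicle, 16 to 24 under db-cAMP and 4 to 8 for the interaction. The median change for KO against WT under db-cAMP was -0.161 with equal 75th percentiles, 0.064 with the mean of probe sets and 0.12 with quantile normalization, and under vehicle it was -0.26 and -0.033 with the 2 scalings. With each array left out, the medians ran from -0.206 to -0.136 in WT, -0.071 to -0.034 in KO, -0.189 to -0.141 and -0.057 to -0.01 for genotype under vehicle and db-cAMP, and 0.072 to 0.122 for the interaction.

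Over all genes, calls without the trend fell from 1013 to 188 for db-cAMP in KO, from 1311 to 251 for genotype under vehicle and from 1425 to 261 for the interaction, and with the mean of probe sets to 497, 794 and 709.

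Signs reversed with the mean of probe sets for db-cAMP in WT (Eif1ax -0.986, Eif3d 0.266, Eif3h -0.744, Eif4ebp1 0.098), the interaction (Eif1ax 0.855), genotype under vehicle (Eif2s2 0.029, Eif3a 0.504, Eif3c 0.35, Eif4e2 0.114) and genotype under db-cAMP (Eif1ax 0.743, Eif2s2 0.376, Eif3c 0.33, Eif3h 0.316, Eif4b -0.074, Eif4e2 0.155, Eif5b 0.784). With quantile normalization they reversed for db-cAMP in WT (Eif3i -0.158, Eif4a1 -0.168), genotype under vehicle (Eif3i 0.209, Eif4h 0.016, Eif5a 0.137) and genotype under db-cAMP (Eif1ax 0.033, Eif3c 0.167, Eif3e 0.183, Eif3i 0.387, Eif4g2 0.293, Eif5a 0.165). The mean of probe sets also takes in those that failed the filter on low values. The other probe sets of Eif3h read 0.8633 to 45.22 and that of Eif3d 4.416 to 66.83, all of which failed it. The dimmest of Eif1ax read 6.856 to 138.9. The cause of the reversals was not tested.

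With the replicate block the counts were 24 in WT, 6 in KO, 14 and 23 for genotype and 7 for the interaction; the numbers do not pair the arrays. With 2 arrays a group, no fit without a shared spread was available for the leave-out settings, and the lone array was assumed to vary like the others.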
